A study of Mus musculus with 4 samples.

Results

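The cells described here are the retinal ganglion cells (RGCs) of the type 17_Tbr1_S1, the name that the authors' table gives them in its column of predicted types. They number 3115 of the 131379 RGCs in the table. RGCs are the output neurons of the retina, and their axons form the optic nerve. The study cut wild-type C57BL/6 mouse retinas en face, that is parallel to the retinal surface, into 20 µm cryosections. It imaged them with Xenium, an assay that decodes single transcripts in place and reports each as a punctum, using a custom panel of 300 genes. The table holds 5 retinas, 41 sections on 8 slides and 45 RGC types. All samples form 1 group without treatment, their age is not stated in these sources, and no label says if the retinas came from different animals. All comparisons therefore lie within retinas, and the tests weigh differences only against the spread of these 5 retinas, which may be technical.

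Tbr1 is a T-box transcription factor gene that marks a small family of RGC types in the mouse retina. Tbr1 RGCs are known to place their dendrites mainly in the part of the inner plexiform layer that serves OFF signals, and the family includes J-RGCs, which carry the adhesion molecule gene Jam2. Cells of 1 RGC type usually tile the retina: they keep a distance from each other and ignore cells of other types. By their names, 4 types of the table bear on this family: 17_Tbr1_S1, 21_Tbr1_S2 with 6339 cells, 05_J-RGC with 4610 cells and 09_Tbr1_Novel with 2257 cells. Other types may belong to it too, since Tbr1 is not among the panel genes used. Below these 4 types are called S1, S2, J-RGC and Tbr1_Novel.

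The retinas held 804, 1010, 315, 674 and 312 S1 cells, in the order of retinas 1 to 5, with 268638, 299625, 91167, 199012 and 96870 puncta. Retinas 3 and 5 therefore carry the largest counting error. No cell had fewer than 100 puncta, and retinas 4 and 5 share 1 slide and retinas 3 and 5 another. No cell name occurred more than once. A merge of segments was marked in the names of 10.5% of S1 cells and 10.8% of all cells.

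Rprm and Slitrk6 are the 2 genes given as markers of the label. The types may have been assigned from these same genes, so their levels describe S1 and cannot test the label. Rprm, a gene named for cell-cycle arrest after p53 activation, was high in S1. S1 cells held 1.99, 2.32, 1.84, 1.95 and 1.73 Rprm puncta per cell in retinas 1 to 5, and S2 cells 0.508, 0.571, 0.471, 0.471 and 0.408. The lowest S1 value lay above the highest S2 value by a wide margin. The log2 ratio of Rprm CPM (a gene's puncta scaled to 1000000 puncta of the type) was 1.96 ± 0.04 (SD, n = 5 retinas) against the mean of the other types. Ranks of types for a gene are by mean CPM throughout. Rprm was not particular to S1, however, since 5 types ranked above it: 04_FminiOFF, Tbr1_Novel, 28_FmidiOFF, 40_M1dup and 33_M1. J-RGC followed directly below, with 1.91 ± 0.176 puncta per cell against 1.97 ± 0.222 in S1, and S1 was the higher of this pair in 4 of 5 retinas.

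Slitrk6, which encodes a synaptic adhesion protein, did not set S1 apart. S1 cells held 0.152, 0.220, 0.156, 0.194 and 0.224 Slitrk6 puncta per cell in retinas 1 to 5, and S2 cells 0.429, 0.567, 0.437, 0.479 and 0.463. Each retina had the lower level in S1. The log2 ratio was −1.37 ± 0.16 against S2 and 0.44 ± 0.17 against the mean of the other types, and S1 ranked 10 of 45. J-RGC and Tbr1_Novel held 0.523 ± 0.0494 and 0.517 ± 0.0807 Slitrk6 puncta per cell. Tbr1 itself is not among the panel genes used, so the family gene could not be read directly.

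**Figure D1:**
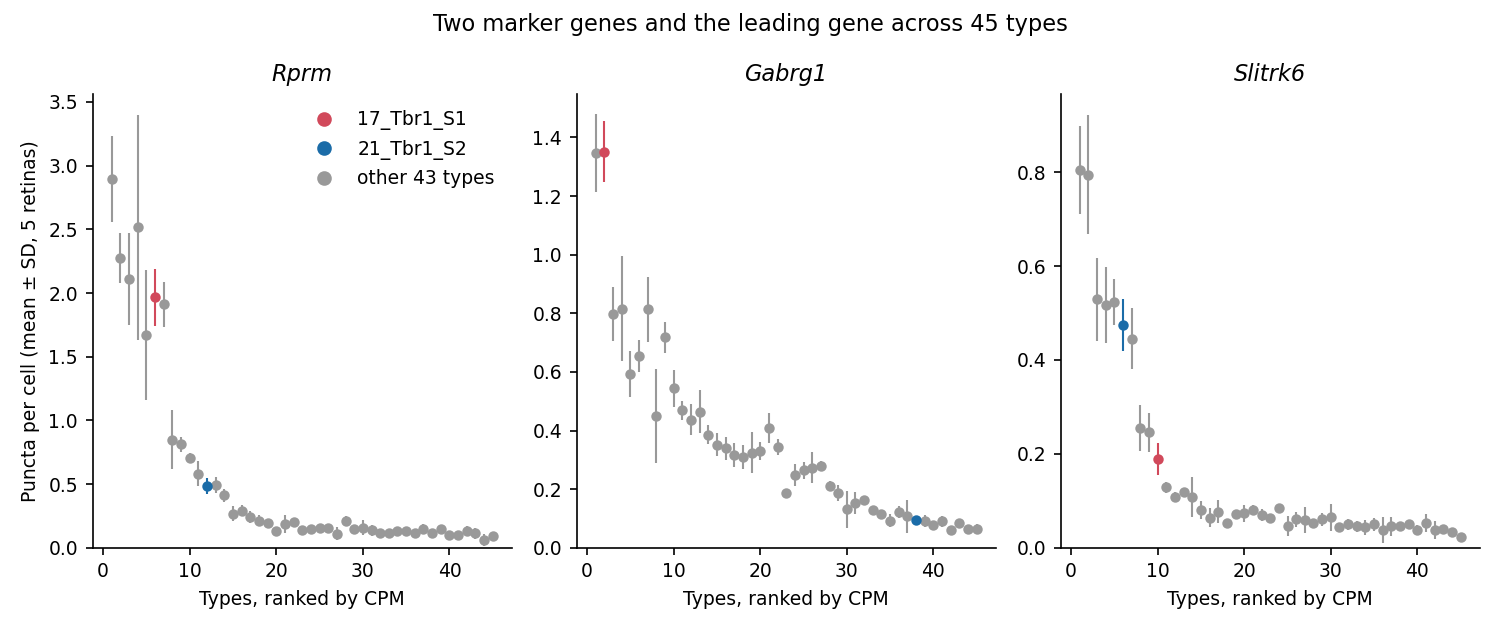
Puncta per cell of Rprm, Gabrg1 and Slitrk6 in each of the 45 types (points, mean over 5 retinas; bars, SD), with types in the order of their CPM along each horizontal axis. S1 (red) stood at rank 6 for Rprm, rank 2 for Gabrg1 and rank 10 for Slitrk6, and S2 (blue) lay below S1 for Rprm and Gabrg1 and above it for Slitrk6.

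Gene levels were compared between types as ratios of CPM, with 1 added to each value before the log2. The types may have been assigned from these same genes, so the ratios describe the type and carry no test. A gene was called when it lay past 2-fold in the same direction in all 5 retinas. Against the mean of the other types, 9 of 300 genes (3%) were higher in S1 and 35 (11.7%) lower, and the median log2 ratio over all genes was −0.30. Against S2, 20 genes were higher (6.67%) and 20 lower (6.67%), with a median of −0.15. All 9 genes higher than the other types were also higher than S2, and 12 genes were lower in both comparisons. Both comparisons use the same S1 cells.

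The highest and the lowest log2 ratio against S2 both belonged to subunit genes of the GABA-A receptor. Gabrg1 encodes the gamma-1 subunit of the GABA-A receptor, the chloride channel that GABA opens. S1 cells held 1.5, 1.33, 1.21, 1.36 and 1.36 Gabrg1 puncta per cell in retinas 1 to 5, against 0.105, 0.0778, 0.114, 0.0859 and 0.0943 in S2. The ranges were far apart, and Gabrg1 had the highest log2 ratio of the panel against the other types (2.14 ± 0.08) and against S2 (3.80 ± 0.25). Only 14_ooDS_Cck, a direction-selective type by its name, ranked higher by CPM, and S1 was above it in 1 of 5 retinas. Next below S1 came 18_Novel, which S1 exceeded in 5 of 5 retinas. The gamma-3 subunit gene Gabrg3 had the opposite pattern: S1 held 0.261, 0.233, 0.321, 0.197 and 0.276 puncta per cell and S2 2.94, 2.60, 2.39, 2.50 and 2.43. Its log2 ratio was −3.37 ± 0.31 against S2 and −2.01 ± 0.27 against the other types.

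The alpha-2 subunit gene Gabra2 was higher in S1 than in S2, with 4.30 ± 0.215 against 0.765 ± 0.0805 puncta per cell and a log2 ratio of 2.46 ± 0.17. The beta-1 subunit gene Gabrb1 was also called against S2, at 2.13 ± 0.32. Glra2, the alpha-2 subunit of the glycine receptor, was called against S2 at 1.54 ± 0.14. Its ratio against the other types was 1.13 ± 0.12, with 1 retina short of 2-fold. The glycine receptor beta subunit gene Glrb lay at −0.15 ± 0.03 against S2. In all, 5 of the 15 inhibitory receptor genes on the panel were higher than in S2 and 2 were lower, with a list median of 0.07. Against the other types 1 was higher and 2 were lower, with a median of −0.03. The second lower gene in both was Gabra3, at 0.00157 puncta per cell in S1, a level too low to describe.

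Among transcription factor genes, some were higher in S1 and others lower. Tfap2d, an AP-2 family gene known from direction-selective RGCs, had 0.998, 1.12, 0.873, 1.00 and 1.01 puncta per cell in S1 and 0.0822, 0.102, 0.0818, 0.0670 and 0.0943 in S2. The groups did not overlap, and the log2 ratios were 3.52 ± 0.20 against S2 and 1.63 ± 0.09 against the other types. All 3 ooDS types, named for ON-OFF direction selectivity, ranked above S1 for this gene, together with 35_Novel and 36_Novel. Meis2, a TALE homeobox gene, averaged 7.85 ± 0.750 puncta per cell in S1, 1.73 ± 0.188 in S2 and 3.76 ± 0.178 in the other types. J-RGC and Tbr1_Novel were also low for Meis2, at 1.46 ± 0.187 and 1.31 ± 0.131. Irx6, an Iroquois homeobox gene, was high in 3 of the 4 types named here but not in S2: J-RGC (1.75 ± 0.121 puncta per cell) and Tbr1_Novel (1.37 ± 0.156) took the top ranks among all types. S1 was at rank 7, below 07_Novel, 22_M5, 35_Novel and 36_Novel too, and held 1.04 ± 0.0928 against 0.162 ± 0.0266 in S2.

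Pou4f3, the Brn3c gene of the POU factors that many RGCs carry, was called against S2 at a log2 ratio of 1.89 ± 0.16. Against the other types it stood at 1.08 ± 0.11. J-RGC and Tbr1_Novel held 0.0779 ± 0.0115 and 0.0875 ± 0.0151 Pou4f3 puncta per cell, against 0.833 ± 0.143 in S1. The LIM homeobox gene Isl2 was lower in S1 than in S2, with 0.484 ± 0.0665 against 2.19 ± 0.398 puncta per cell (log2 ratio −2.20 ± 0.10). The zinc finger gene Zeb2 was lower than in S2 too, at −2.06 ± 0.13. Neurod2, a proneural basic helix-loop-helix gene, Tbx20, a T-box gene, and Lmo2, a LIM-only gene, were called lower than the other types, at −2.65 ± 0.43, −2.57 ± 0.39 and −2.23 ± 0.20. The mean over the other types is drawn up by the few types rich in such a gene: S1 ranked 12 of 45 for Tbx20 and 21 of 45 for the melanopsin gene Opn4, whose ratio was −3.64 ± 0.65.

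Sv2c, Syt6, Ctxn3 and Atp2b4 were also among the genes called higher in both comparisons. Sv2c encodes a synaptic vesicle protein, and by CPM S1 ranked second of the 45 types for it, below 13_Novel in every retina. In puncta per cell further types lay above S1 (8.32 ± 0.620), such as 27_Novel (9.24 ± 0.394) and 43_AlphaONS (9.15 ± 0.990). S1 cells held 9.11, 7.57, 7.97, 8.17 and 8.79 Sv2c puncta per cell, against 3.38, 2.79, 3.04, 2.87 and 3.41 in S2. J-RGC and Tbr1_Novel were lower still, at 0.864 ± 0.160 and 1.4 ± 0.197. Syt6, a synaptotagmin gene, stood at 1.38 ± 0.09 on the log2 scale against the other types and 2.30 ± 0.16 against S2. Ctxn3, which encodes the small membrane protein cortexin 3, stood at 1.34 ± 0.13 and 2.46 ± 0.18. Atp2b4, a calcium pump of the plasma membrane, stood at 1.11 ± 0.08 and 3.09 ± 0.22, and here J-RGC and Tbr1_Novel ranked above S1.

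Genes with channel-family symbols (Kcn, Scn, Cacn or Hcn) were mostly near the other types. The list was taken by symbol, so it includes channel partners and genes other than voltage-gated channels, such as Kcnj9, Kcnk1 and Kcnq1ot1. Of its 58 genes, none was called higher and 4 were called lower (Kcnd2, Scn7a, Kcnip1 and Cacna1e), with a list median of −0.01. Over the whole panel 3% were higher and 11.7% lower. Against S2, Kcnip3 and Kcnh1 were higher, at 1.70 ± 0.09 and 1.19 ± 0.09, and Scn7a, Kcnip1 and Kcnd2 were lower. Kcnip3 and Kcnip1 encode partners of Kv4 potassium channels and differed in opposite directions. S1 held 0.793 ± 0.0679 Kcnip3 puncta per cell against 0.239 ± 0.0145 in S2, and 0.592 ± 0.0479 Kcnip1 puncta against 2.16 ± 0.132. For Kcnip1 S1 ranked 44 of 45. Scn7a, a sodium channel gene, was lower than in S2 by a log2 ratio of −3.06 ± 0.27, while J-RGC held 2.61 ± 0.407 puncta per cell, near the 2.85 ± 0.296 of S2.

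Pvalb and Calb1, both genes of calcium-binding proteins, were called lower than in S2, and Calb1 was not called against the other types. Pvalb, the parvalbumin gene, had 0.117 ± 0.0303 puncta per cell in S1 and 0.913 ± 0.0827 in S2, and a log2 ratio of −3.03 ± 0.30. Calb1, the calbindin gene, stood at −1.67 ± 0.19 against S2. Of 14 glutamate receptor genes, none was higher and 3 were lower than the other types (Grm5, Grik1 and Grin3a), with a list median of −0.19 beside −0.30 for all genes. The NMDA receptor subunit gene Grin3a was also lower than in S2, at −2.22 ± 0.21, and so was the AMPA receptor subunit gene Gria1, at −1.39 ± 0.23. The main AMPA and NMDA subunit genes Gria2 and Grin1 stood at −0.08 ± 0.03 and 0.04 ± 0.04 against the other types. Col9a1, a collagen gene, was at 0.0169 ± 0.00301 puncta per cell and lower in both comparisons.

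**Figure D2:**
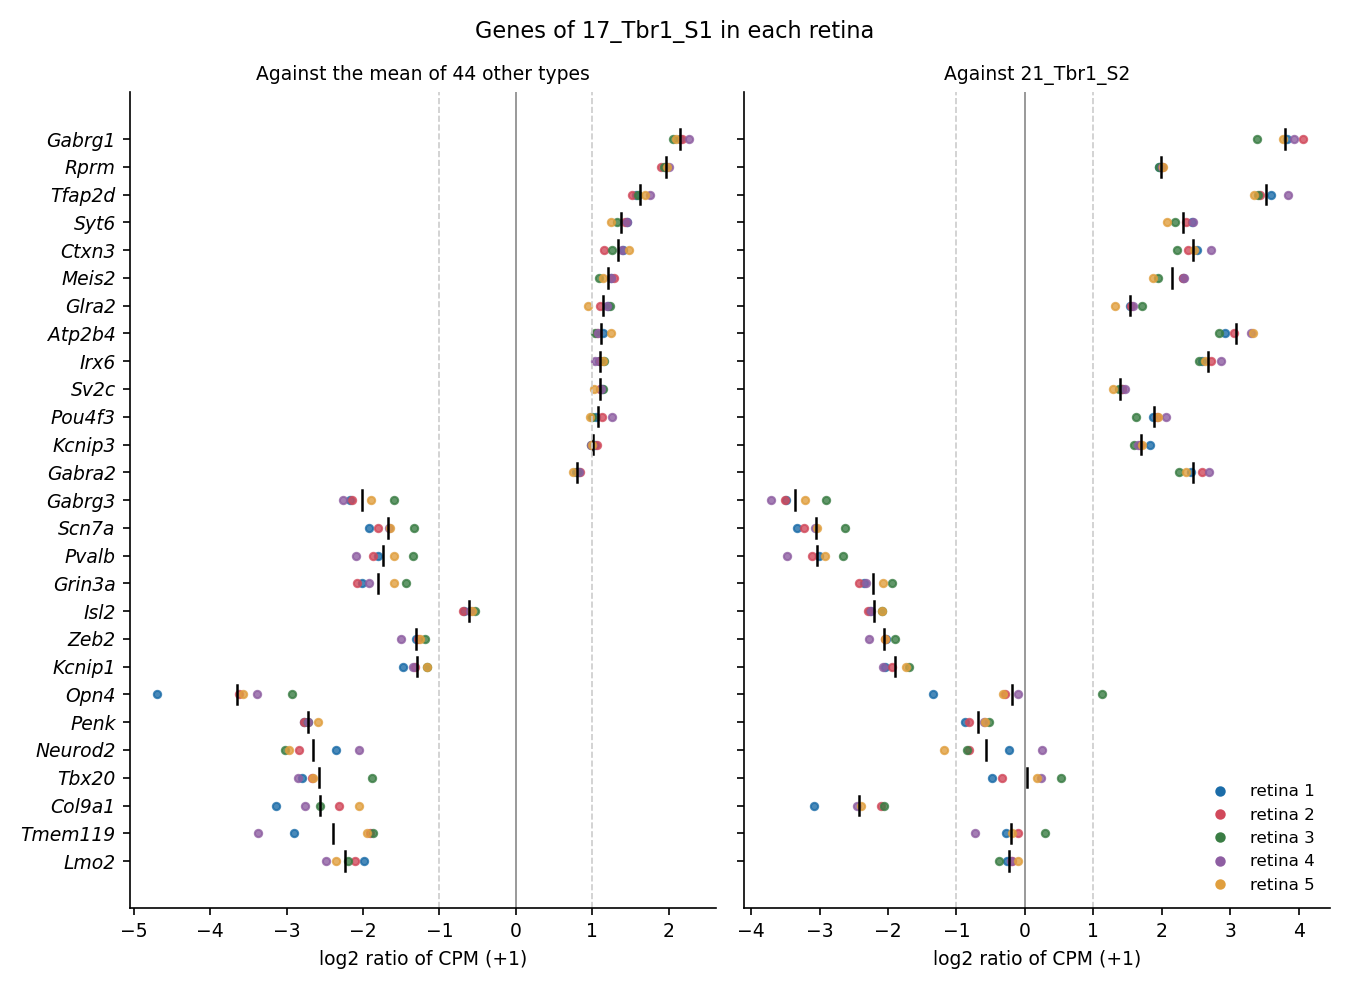
Log2 ratio of S1 CPM (1 added) to the mean of the other types (left) and to S2 (right) for the genes with the largest differences, 1 point per retina, with a bar at the mean and dashed lines at 2-fold. Gabrg1, Tfap2d and Atp2b4 led against S2, Gabrg3, Scn7a and Pvalb lay lowest, and Opn4, Neurod2, Tbx20 and Lmo2 lay far below the mean of the other types but had means between −0.56 and 0.02 against S2. Gal, at 34 puncta in all S1 cells, is left out.

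The marker lists of other RGC classes held more lower than higher genes or 1 of each. The panel as a whole leaned the same way, with 35 of 300 genes (11.7%) lower than the other types and 9 (3%) higher. Of 5 genes of intrinsically photosensitive RGCs, 4 were called lower than the other types and none higher. The exception, Igf1, stood at 0.91 ± 0.09 on the log2 scale. Of 6 genes of W3 and other small RGCs, 4 were called lower, among them the proenkephalin gene Penk at −2.71 ± 0.08. Of 6 genes of alpha RGCs, 2 were lower, Spp1 (osteopontin) and Etv1, for which S1 ranked 15 and 26 of 45 types. Of 4 genes of F RGCs, 1 was lower and none higher, with Pou4f3 above the other types but not called. Of 3 ooDS genes, Tfap2d was higher and Gabrg3 lower. Against S2 neither the ipRGC nor the alpha list had a called gene. Gal, the galanin gene, had the lowest log2 ratio against the other types, but it rests on 34 puncta in all S1 cells, with none in retina 5.

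Other genes of the Tbr1 family and J-RGCs did not move together. Of the 7 on the panel, Rprm and Irx6 were higher than the other types. Jam2, Pcdh8, Slitrk6, Calb1 and Irx3 were not called. Against S2, Rprm and Irx6 were higher, while Slitrk6 and Calb1 were lower. Jam2, the defining gene of J-RGCs, had 1.86 puncta per cell in S1, 1.15 in S2 and 1.72 in the mean of the other types. Of the 7 genes marking RGCs as a class, none was called against the other types, with a list median of 0.13. Slc17a6, the vesicular glutamate transporter gene of RGCs, was at 11.6 puncta per cell in S1 and 11.4 in S2.

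Markers of cells next to RGCs were present at low levels and were near the level of the other types. None of 15 amacrine, 3 rod, 2 cone, 5 Müller glia and 2 astrocyte genes was called in S1. The amacrine genes summed to 12.4 to 13.6 puncta per cell over retinas in S1, of which Pax6 held 7.43, and to 13.5 to 14.6 in the other types. The rod genes summed to 0.726 to 1.58 against 0.853 to 1.81, and the Müller glia genes to 1.24 to 1.80 against 1.46 to 2.05. The microglial gene Tmem119 and the endothelial gene Cdh5 were called lower in S1, at 0.0145 and 0.0529 puncta per cell. Of the 14 bipolar genes, Irx6 was higher and Grik1 lower, and the defining gene Grm6 was at 0.0282 puncta per cell.

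S1 had no gene of its own on this panel. By CPM it ranked first among the 45 types for 0 of the 300 genes. In puncta per cell S1 held the most Gabrg1, but by little: 1.351 ± 0.104 against 1.346 ± 0.132 in 14_ooDS_Cck. A pair of genes described S1 better. With each cell thinned to 100 puncta, Gabrg1 and Rprm were found together in 16.1% ± 1.96 of S1 cells, with retinas between 13.5% and 18.7%. That was the highest share of any type, ahead of 28_FmidiOFF at 8.95% ± 1.51 and Tbr1_Novel at 4.85% ± 1.07. The pair was chosen for being high in S1, so its rank is a description.

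Likeness over the whole profile did not single out the Tbr1 types. The Spearman correlation of mean log2 CPM over the 300 genes was highest with 14_ooDS_Cck (0.932), followed by 08_Novel (0.928), 26_Novel (0.926), 15_Novel (0.925) and J-RGC (0.924). S2 came at rank 10 with 0.917 and Tbr1_Novel next with 0.910. These correlations run across genes of the same panel, libraries and probes, and the order was not firm: over retinas J-RGC ran from 0.889 to 0.938, 14_ooDS_Cck from 0.919 to 0.933 and S2 from 0.905 to 0.921. From 14_ooDS_Cck, S1 differed by more than 2-fold in 43 genes, and from S2 in 59.

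Variation from cell to cell within S1 was measured in cells thinned to 100 puncta, which draws variance over mean towards 1. Of the 300 genes, 112 had a mean of at least 0.2, and their variance over mean had a median of 1.15. Spp1 had the highest ratio, 3.15, with retinas between 2.40 and 3.97. It was found in 11.8% of thinned S1 cells. The next were Mmp9, a matrix metalloprotease gene, at 2.04, and Spc25, a kinetochore gene, at 1.84. Fgf1 followed at 1.56, Gabra4 and the heavy neurofilament gene Nefh each at 1.5, and Vgf and Ctxn3 each at 1.43. S2 had similar ratios for Spp1 (3.13) and Mmp9 (1.97). Its ratios were above those of S1 for Spc25 (2.00), Fgf1 (1.86), Gabra4 (1.55), Nefh (1.59) and Ctxn3 (1.68), and below for Vgf (1.15).

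S1 made up a small and even share of RGCs. The share was 2.29% in retina 1 (95% Wilson interval 2.14 to 2.45), 2.46% in retina 2 (2.32 to 2.61), 2.40% in retina 3 (2.15 to 2.68), 2.43% in retina 4 (2.26 to 2.62) and 2.17% in retina 5 (1.95 to 2.42). The intervals, which cover counting error only, all overlapped. The mean was 2.35% ± 0.119 (SD, n = 5 retinas), which placed S1 at rank 16 of 45, and S2 was at 4.85% ± 0.212. The CV between retinas was 5.06%, the eighth lowest among the types. Among the 27 sections with at least 1000 RGCs the share ran from 1.71% (1.24 to 2.35) to 2.78% (2.08 to 3.71), with a median of 2.35%. The interval of 26 of these 27 sections held the pooled share of 2.37%. The type was missing from 5 sections, the largest of which held 134 RGCs.

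The position of a cell was not used to choose it, so position was tested. The authors scaled positions to a circle, and cells were split at a scaled radius of 0.5 into centre and periphery. S1 made up 2.40% ± 0.157 of RGCs in the centre and 2.30% ± 0.139 in the periphery. In edgeR's quasi-likelihood fit over all types the log2 change was −0.06 ± 0.06 (SE; 95% interval −0.18 to 0.07; adjusted p = 0.489). By the same test 19 of 45 types (42.2%) changed along the radius, and S1 was not among them. J-RGC was, lower in the periphery by −0.23 ± 0.06 (adjusted p = 0.00395, edgeR). The S1 change differed from the S2 change by 0.00 ± 0.09 (SD; exact sign-flip permutation test over 5 retinas, p = 1).

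Along the X axis S1 made up 2.41% ± 0.0959 below 0 and 2.28% ± 0.163 from 0 on, a log2 change of −0.07 ± 0.06 (95% interval −0.21 to 0.07; edgeR adjusted p = 0.437). Here 13 of 45 types (28.9%) were called. When the fit was scaled over types by TMM, the change along X was −0.14 with an adjusted p of 0.0494 (edgeR), so this call depends on the scaling. Along Y the shares were 2.28% ± 0.0512 and 2.45% ± 0.253, a change of 0.10 ± 0.07 (95% interval −0.07 to 0.27; adjusted p = 0.311), and 0 of 45 types (0%) were called. The labels give no anatomical direction for X or Y and do not say whether they run the same way in every retina. By radius in 5 steps, the shares were 2.50% ± 0.327, 2.36% ± 0.117, 2.42% ± 0.107, 2.30% ± 0.262 and 2.05% ± 0.368 from the centre outwards. The outermost value in retina 5, 1.42%, rests on 8 S1 cells of 565. The 4 quadrants lay between 2.24% ± 0.153 and 2.53% ± 0.211.

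**Figure D3:**
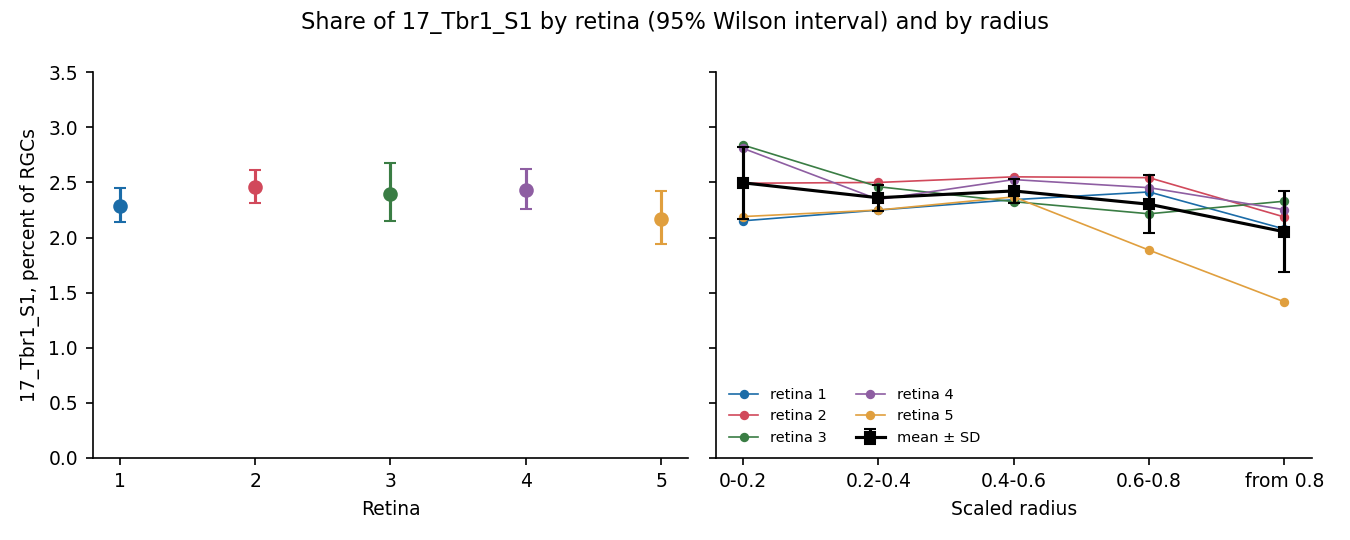
Share of S1 among RGCs in each retina with its 95% Wilson interval (left), and in 5 steps of the scaled radius (right; coloured lines, retinas; black, mean ± SD). The 5 retinas lay between 2.17% and 2.46%, and the means by radius between 2.05% and 2.50% with overlapping spreads.

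Gene levels within S1 were compared between centre and periphery. The choice of cells did not use position. The types may have been assigned from these same genes, however, so gene levels within S1 may depend on the label. Of 273 genes tested, 4 (1.47%) passed an adjusted p of 0.05 in edgeR, 2 in each direction. Over all types 240 of 10755 type-gene pairs (2.23%) passed, and the S1 count is no higher than that background. Each of the 4 genes had the same direction in 5 of 5 retinas.

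Jam2 was lower in the periphery. Its CPM were 7337, 8946, 6146, 7730 and 6147 in the centre of retinas 1 to 5, and 5911, 6671, 4973, 5179 and 3780 in the periphery. Every retina fell, and the log2 change was −0.45 ± 0.07 (SE; edgeR adjusted p = 0.00322), or 2.25 ± 0.379 against 1.60 ± 0.353 puncta per cell (SD, n = 5). Jam2 was below 0 in most types: of 39 others tested, 5 had a change above 0, 3 were called lower and none higher. S1 had the second lowest value. In S2 the change was −0.17 ± 0.06 (adjusted p = 0.171), and the difference between S1 and S2, −0.26 ± 0.10, did not pass in edgeR (adjusted p = 0.408). Prph, which encodes the intermediate filament peripherin, also fell, from 0.298 ± 0.0985 to 0.177 ± 0.0170 puncta per cell. Its log2 change was −0.68 ± 0.14 (edgeR adjusted p = 0.0144), and the centre of retina 1 stood highest, at 1293 CPM against 759 to 907 in the other centres. Prph was below 0 in most types: of 37 other types 2 had a change above 0 and 1 was called lower, and in S2 the change was −0.51 ± 0.12 (edgeR adjusted p = 0.0563).

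Spc25 and Fxyd6 were higher in the periphery. Spc25 had 4.44 ± 0.870 puncta per cell in the centre and 5.14 ± 0.764 in the periphery, a log2 change of 0.27 ± 0.05 (edgeR adjusted p = 0.00369). Fxyd6, a regulator gene of the sodium-potassium pump, had 0.712 ± 0.170 and 0.934 ± 0.252, a change of 0.42 ± 0.09 (edgeR adjusted p = 0.0239). Neither rise belonged to S1 alone. Spc25 was above 0 in 38 of 39 other types and called in 18, and Fxyd6 was above 0 in 39 of 39 and called in 28. S1 ranked 33 among the 40 types for Fxyd6. Without retina 4 no S1 gene passed, with adjusted p of 0.0803 for Jam2, 0.0546 for Spc25, 0.151 for Fxyd6 and 0.117 for Prph (edgeR), while the changes themselves stayed at −0.41, 0.26, 0.41 and −0.70.

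Rod and Müller glia markers lay on the same side as these rises. All 3 rod genes and all 5 Müller glia genes had a change above 0 along the radius in S1, with medians of 0.36 and 0.28, and none passed the test. Other glial markers did not share this side: of 2 astrocyte genes 1 was above 0 (median −0.09), and the 1 microglial gene tested was at −0.11. Summed per S1 cell, the rod genes ran from 0.493 to 1.66 in the centre and 0.736 to 1.49 in the periphery over retinas. The Müller glia genes ran from 1.03 to 1.74 and from 1.36 to 2.04. Their part in the results along the radius was not tested. Over all 273 genes the median change was −0.01. Of the 58 genes with channel-family symbols, 30 were above 0 and none was called. The medians of the inhibitory and glutamate receptor lists were 0.07 and −0.02.

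Along X, 1 of 281 genes (0.356%) passed, against 34 of 11826 type-gene pairs (0.288%) over all types. Spon1, which encodes the secreted matrix protein F-spondin, was at 6657, 6033, 6443, 6685 and 6007 CPM below 0 on X, and at 5378, 5008, 5298, 5723 and 4750 from 0 on. The ranges did not overlap, and the log2 change was −0.29 ± 0.06 (SE; edgeR adjusted p = 0.0347). DESeq2 did not call it, nor did edgeR without retina 1 or without retina 2. Of 42 other types, 10 had a Spon1 change above 0 and none was called.

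Along Y, 0 of 281 genes (0%) passed in edgeR, against 42 of 11499 type-gene pairs (0.365%). In S1 35 genes had an unadjusted p under 0.05 in edgeR, the smallest adjusted p was 0.0869, and DESeq2 called 0. Ctxn3 and Kcnip3 differed in direction between retinas along Y. Ctxn3 changed by 0.83, 0.63 and 0.71 on the log2 scale in retinas 1, 2 and 4, and by −0.34 and −0.14 in retinas 3 and 5. Kcnip3 had −0.59, −0.34 and −0.61 in retinas 1, 2 and 4, and 0.26 and 0.21 in retinas 3 and 5. The marker genes stayed below 0 in every retina: Slitrk6 was at −0.97, −0.85, −0.59, −1.39 and −0.00 in retinas 1 to 5, and Rprm at −0.09, −0.43, −0.32, −0.38 and −0.28. These genes were singled out after their values were seen. Without retina 5, 2 genes passed along Y.

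Whether position acted differently on S1 and S2 was tested gene by gene as an interaction. None of 290 genes passed along the radius (0%), none of 288 along X (0%) and none of 292 along Y (0%), in edgeR and in DESeq2. The genes with an unadjusted p under 0.05 in edgeR numbered 18, 15 and 22. Without retina 3, 1 gene passed along the radius, and without retina 5, 8 passed along Y.

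**Figure D4:**
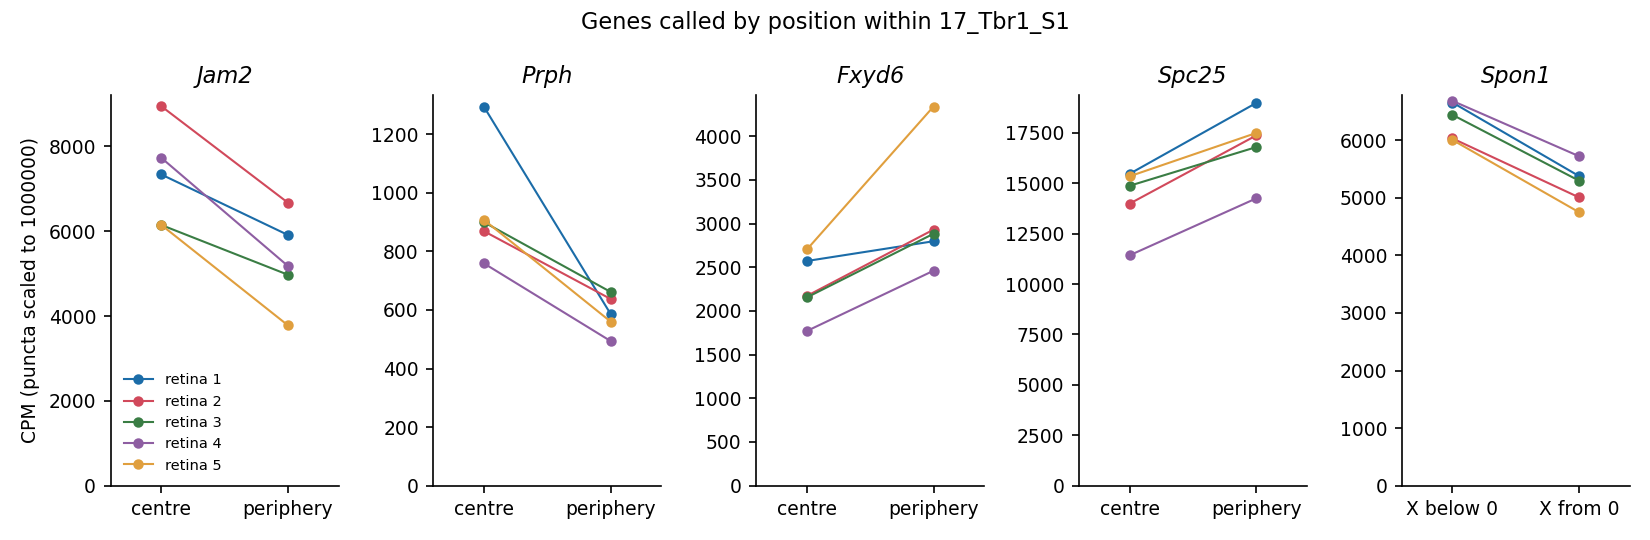
CPM of the 4 genes called along the radius and the 1 gene called along X within S1, with 1 line per retina and vertical axes from 0. Jam2, Prph and Spon1 fell and Fxyd6 and Spc25 rose in each of the 5 retinas.

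S1 cells kept apart from each other. Spacing was measured as the number of pairs of S1 cells within a given distance in a section, over the number given by pairs of an S1 cell with any other RGC, so that section outline and local density enter both. A ratio of 1 is no avoidance. The unit of position is not stated, and the median distance from an RGC to its nearest RGC was 9.73 units. Within 60 units the ratio was 0.503, 0.554, 0.703, 0.584 and 0.642 in retinas 1 to 5, and each retina lay below 1. There were 762 pairs where other RGCs gave 1333. The mean was 0.597 ± 0.0776 (log2 −0.75 ± 0.19, SD). The exact sign-flip permutation test (two-sided, 5 retinas) gave p = 0.063, the smallest this design allows, and 0.0875 adjusted over 7 pairings.

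The gap was deepest at short range. In shells 20 units wide the ratio rose from 0.243 ± 0.105 within 20 units (40 pairs) to 0.510 ± 0.133, 0.749 ± 0.0973 and 1.01 ± 0.113 at 60 to 80 units. Beyond that it stayed between 1.00 and 1.10. S2 cells avoided each other too, at 0.771 ± 0.0372 within 60 units, and the S1 ratio was the lower of both in 5 of 5 retinas. The log2 difference was −0.38 ± 0.20 (SD; exact sign-flip permutation test over 5 retinas, p = 0.063). S2 is the denser type, so a fixed distance spans a larger part of its spacing. Tbr1_Novel lay at 0.583 ± 0.0364 and J-RGC at 0.716 ± 0.0859, and S1 ranked 16 of 45 from the lowest ratio. A mean ratio below 1 was the rule among the types, and only 35_Novel, 40_M1dup, 41_AlphaONT and 44_Novel lay above 1.

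Pairs between types stood near 1. The ratio within 60 units was 0.966 ± 0.0276 for S1 with S2, 1.04 ± 0.0742 for S1 with J-RGC and 1.04 ± 0.0316 for S1 with Tbr1_Novel. The S1 with S2 ratio was below 1 in 5 of 5 retinas (exact sign-flip permutation test, p = 0.063, 0.0875 adjusted over 7 pairings). This offset was not particular to short range: the shell means were 0.971 ± 0.0873 within 20 units and 0.974 ± 0.0337 at 180 to 200 units. The ratios of S1 with J-RGC and with Tbr1_Novel gave p of 0.375 and 0.125 in the same exact permutation test.

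**Figure D5:**
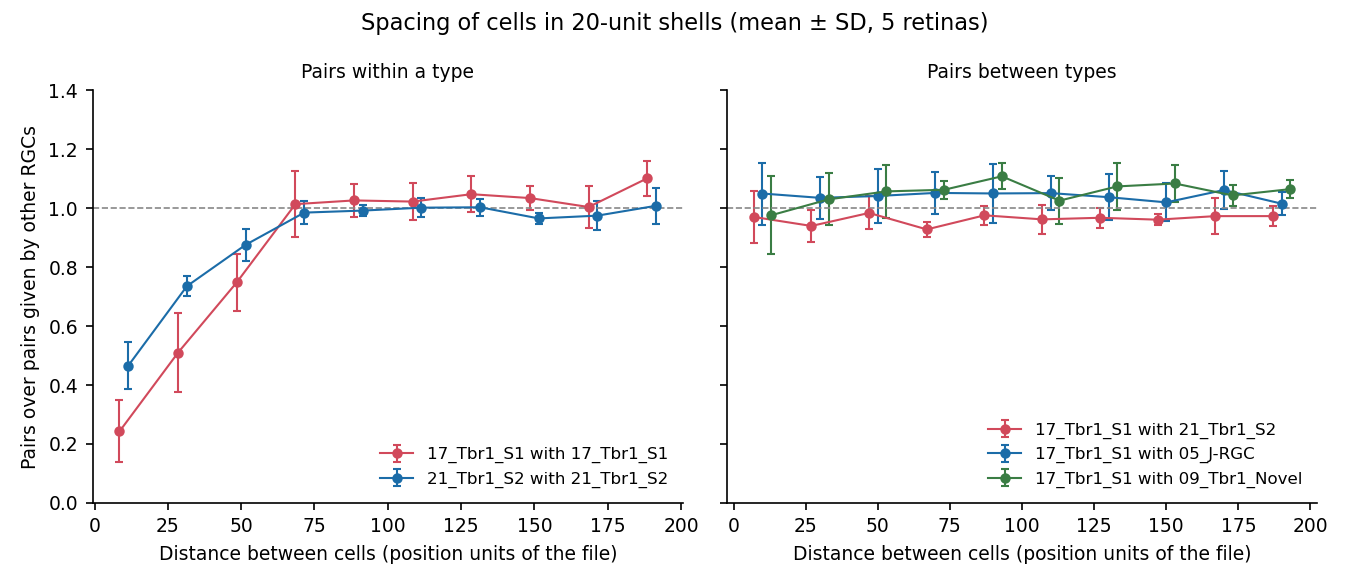
Pairs of cells in 20-unit shells of distance, over the number given by pairs with other RGCs, within types (left) and between S1 and 3 related types (right); points are means over 5 retinas, bars the SD, and the dashed line marks 1. The S1 curve starts at 0.243 and reaches 1.01 at 60 to 80 units, S2 starts at 0.466, and the curves between types stay near 1 at every distance.

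The authors' own nearest-neighbour distances are given as a description, since a denser type has shorter ones by its number alone. In sections with at least 1000 RGCs the median distance from an S1 cell to the nearest S1 cell was 70.9, 70.6, 62.9, 66.1 and 66.2 units in retinas 1 to 5, a mean of 67.3 ± 3.39. For S2, which has more cells, it was 46.2 ± 2.06. Under 40 units lay 16.4% ± 4.37 of S1 cells and 40.7% ± 2.09 of S2 cells. In the 13 regions outlined in the table, with 14941 RGCs, the mean over the SD of the nearest distance was 3.07 for 356 S1 cells and 2.37 for 611 S2 cells. Points placed at random in a plane give 1.91. By retina the S1 value was 3.82, 3.49, 4.26, 2.68 and 2.19, and the value of retina 3 rests on 13 cells. A section is a slice of the retina, so a cell whose nearest partner was cut away has too long a distance.

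The segmented volume of S1 cells was close to that of the other types. The median was 579, 578, 597, 521 and 586 in retinas 1 to 5, in units the sources do not state, against 570 ± 45.7 in S2 and 606 ± 42.9 as the median over other types. S1 ranked 32 of 45. It lay below the other types in 5 of 5 retinas, by −0.08 ± 0.03 on the log2 scale (SD; exact sign-flip permutation test over 5 retinas, p = 0.063, 0.161 adjusted over 18 tests of volume, shape, DAPI and puncta). Against S2 the difference was 0.01 ± 0.06 (exact permutation p = 0.8125), and its sign depended on the summary used, as the mean in place of the median gave −0.04. From centre to periphery the S1 volume changed by −0.09 ± 0.17 (exact permutation p = 0.25), with retina 3 alone at −0.39.

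S1 cells held more puncta than S2 cells. The median was 292.5 ± 21.2 puncta per cell in S1, 263.8 ± 17.2 in S2 and 308.7 ± 16.7 over the other types. The S1 value was above that of S2 in 5 of 5 retinas, by 0.15 ± 0.07 on the log2 scale (exact permutation p = 0.063, 0.161 adjusted over 18). Gene ratios above are scaled to total puncta. DAPI brightness was above S2 in 5 of 5 retinas as well, by 0.06 ± 0.04 with the same exact permutation p. Elongation, flatness and sphericity differed from S2 by −0.01 ± 0.02, −0.00 ± 0.01 and −0.01 ± 0.03, with exact permutation p of 0.5, 0.6875 and 0.5.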

How the data were processed

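The deposited values are puncta counts for 300 genes in each cell, whole numbers with no normalization, per the file headers. The same table gives each cell's predicted type, retina, slide, section, position and volume. Every cell is an RGC, so shares are shares of RGCs. The steps of segmentation, filtering and typing are not stated in these sources. The 4 labelled samples are pairs of slides that no label ties to a retina, so the replicate is the retina column (n = 5). A median of 304 puncta per cell leaves most genes at 0 or 1 punctum, so counts were summed.

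Sums per retina and side (at least 50 cells) were fitted with edgeR 4.0.16 in R 4.3.3: quasi-likelihood, retina as a block because each retina gives both sides, TMM, filterByExpr and Benjamini-Hochberg adjustment over the type-gene pairs of each axis, at 0.05. The interaction was adjusted over its own genes. Type shares were fitted on cells per side without scaling and adjusted over the 45 types. Single values were tested by exact sign-flip permutation (two-sided, 5 retinas), which cannot go below 0.063, or 0.125 with 4. Ratios between types used CPM (puncta scaled to 1000000 per type and retina) plus 1. Genes named are the markers, up to 12 higher and 8 lower than other types, and up to 8 in each direction against 21_Tbr1_S2, by mean log2 ratio among genes with one direction in 5 retinas and at least 100 puncta, plus the genes called along an axis; further genes are named as members of the gene lists. The nearest-neighbour distances of the authors lay within 1 unit of recomputed ones for 99.4% of 3114 cells.

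The cells, lists and rules were chosen with earlier results of these data known. On simulated data the fit of 268 genes along the radius recovered 50% of 1.2-fold and 94.4% of 1.5-fold changes and called 3.37% of unchanged genes. There, 90 and 89 of the 268 genes were given these changes, and the adjustment ran over these genes alone. The real adjustment ran over 10755 type-gene pairs, so recovery in the real fit may be lower and was not measured. The fit of the 45 type shares recovered 60% and 100% and called 8.57% of unchanged types. The interaction fit of 288 genes, with 94 and 96 of them given these changes, recovered 31.9% and 75% and called 5.10%. DESeq2 1.42.0 was the alternative tool. Python 3.11.15, numpy 2.4.6, pandas 2.3.3, scipy 1.17.1 and matplotlib 3.10.9 did the rest. Spacing without cells marked as merged was added after seeing the data. No probe sequences were used here. Values of some list members are not reported here.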

Additional observations from a re-analysis of the deposited data

Results flagged for a closer look

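Of 49 sets of 5 retina values examined, 3 held a retina far from the other 4 by Dixon's criterion (critical value 0.71), which chance gives in about 1 set of 20. The median volume of 17_Tbr1_S1 cells was 521 in retina 4, against a median of 579 over the retinas. The median volume of 21_Tbr1_S2 cells was also lowest in retina 4, at 508. The log2 ratio of Penk against the other types was −2.58 in retina 5, against a median of −2.72. That of Tbx20 was −1.88 in retina 3, against a median of −2.67.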

How the results depend on the processing

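Of the alternatives for the main results, 125 gave the same direction and call and 22 did not. Scaling type shares by TMM over types took the share along X to −0.14 (edgeR adjusted p = 0.0494). Without the replicate block (the retina), 0 genes passed along the radius, against 4, and 0 along X, against 1; the block changed no other call. A split at each retina's median gave 7 genes along the radius and 3 along X. Along X, 2 passed with total puncta in place of TMM, 2 with cells of at least 200 puncta, and 0 with DESeq2 or slide within retina as a block. Leaving out 1 retina gave 0 to 12 genes along the radius (12 without retina 1, 2 without retina 2, 0 without retina 4). It gave 0 to 4 along X (0 without retina 1 or 2, 4 without retina 5) and 0 to 2 along Y (2 without retina 5). For the interaction it gave 0 to 1 along the radius (1 without retina 3) and 0 to 8 along Y (8 without retina 5). The causes were not tested. Of 13 alternatives, Jam2 and Spc25 each passed in 11, Fxyd6 in 9, Spon1 in 8 and Prph in 7, none reversed. The volume against 21_Tbr1_S2 reversed with means (−0.042) and with cells of at least 200 puncta (−0.131), and ran from −0.0047 (without retina 5; −0.00036 without retina 2) to 0.032 leaving out 1 retina. The spacing log2 ratio stayed below 0 in all its alternatives: −1.25 within 40 units, −0.40 within 80, −0.71 without merged cells, and −0.81 to −0.69 leaving out 1 retina. Genes with under 0.1 puncta per cell, and shares from under 50 cells, are limited by counting error.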
